A study of Mus musculus with 8 samples.

Results

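Titin, encoded by *Ttn*, was read on 8 probes in E18.5 mouse hearts, and all 8 gave a higher mean signal in the hearts labelled SIRT1 KO than in the WT hearts, by 0.27 to 0.52 on the log2 scale. The arrays held 8 *Ttn* probes among 41174 probes, and *Ttn* was 1 of 19096 genes that could be named. All probes whose transcript accession maps to *Ttn* were taken, whatever their values. The gene itself was selected on its measured signal in these arrays, which was already known to be higher in the hearts labelled SIRT1 KO, so its genotype difference is given as a description without a test.

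Whole hearts came from C57BL/6 embryos (C57BL/6J in the paper's text) of both sexes at E18.5, from matings of heterozygous mice on a chow diet. There were 4 WT hearts and 4 hearts labelled SIRT1 KO, a germ-line knockout of the deacetylase SIRT1 in the whole body. Each heart was hybridised to 1 one-colour Agilent array. The knockout acts in every cell of the embryo, and bulk RNA cannot tell a change in the number of cardiomyocytes from a change in *Ttn* RNA per cardiomyocyte.

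All values are log2 signals minus the log2 of that array's 75th percentile, so that 0 marks a spot at the 75th percentile and a difference of 1 is a doubling. The 75th percentiles lay between 939.4 and 1032.7 intensity units in WT arrays and between 777.3 and 905.9 in the arrays labelled SIRT1 KO. Each array had 24497 to 26737 probes well above background. The 4 WT arrays shared 1 slide and 1 scan day, and the 4 arrays labelled SIRT1 KO shared another, so genotype cannot be told apart from slide or scan day. *Sirt1* did not bear out the labels. Its brighter probe was higher in the hearts labelled SIRT1 KO by 0.54 (SE 0.11, n = 4 per genotype, limma adjusted p = 0.0323), and its other probe differed by -0.11 (adjusted p = 0.589). The call of the brighter probe was lost in 6 of 8 fits that left out 1 heart (adjusted p 0.0658 to 0.0922), though the difference stayed between 0.47 and 0.63 over these 8 fits. It was also lost with median scaling (0.40, adjusted p = 0.0608), without scaling (0.32, adjusted p = 0.117), and, at the same difference of 0.54, with the methods' analysis of variance (adjusted p = 0.0865) and with the replicate number as a block (adjusted p = 0.0645). Where these probes lie relative to the deleted part of the gene is not known here, and every direction below rests on the labels.

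Titin is the giant elastic protein of the sarcomere, the contractile unit of striated muscle. One molecule runs from the Z-disc, where thin filaments are anchored, through the extensible I-band spring and along the thick filament of the A-band to the M-band. It centres the thick filaments, sets passive stiffness and serves as a scaffold for structural and signalling proteins. Its RNA is heavily spliced, and the splicing factor RBM20 is known for shortening the spring region as the heart matures.

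*Ttn* lies on the minus strand of chromosome 2, at chr2:76703980-76982557 of GRCm38.p6, across 278578 bases. Of the probes, 6 carry the accession NM_011652 and the other two carry NM_028004. Which exons the probes cover was not analysed here. The RefSeq promoter window of *Ttn* places its start site at base 76982547, 10 bases inside the outer end of the gene record, and distances here are counted from that site. To show the regulatory sequence in front of it, the 250 bases before that start site (chr2:76982548-76982797, minus strand, RefSeq, GRCm38.p6) read as follows, with a MEF2 consensus word, 2 CCAAT words and a TATAAG word in capitals.
Ttn: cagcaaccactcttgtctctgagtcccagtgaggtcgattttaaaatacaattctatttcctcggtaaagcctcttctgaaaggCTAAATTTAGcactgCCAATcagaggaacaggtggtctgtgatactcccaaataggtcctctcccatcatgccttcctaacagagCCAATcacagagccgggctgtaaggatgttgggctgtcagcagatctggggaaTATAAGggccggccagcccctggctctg

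MEF2 factors are regulators of muscle genes, and their consensus word starts 166 bases before the start site. Searched on both strands, the MEF2 consensus was present in 2.92% of 32851 RefSeq promoter windows of this length, CCAAT in 33.8% and TATAAG in 6.65%. The E-box CANNTG, the word bound by MyoD-type factors, occurred 1 time here and in 66.2% of windows. TATAAA (12.4% of windows) and the GATA word AGATAA (9.99%) were not in this window. None of the capitalised words overlapped another. These are matches of letters, and no array value measured binding.

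All 8 *Ttn* probes were well above background on 8 of 8 arrays, and none was saturated. On the brightest probe, A_51_P148509, the WT hearts read 5.24, 4.80, 5.02 and 5.45 in replicates 1 to 4. The hearts labelled SIRT1 KO read 5.87, 5.68, 5.30 and 5.56. Hearts 1, 2 and 4 labelled SIRT1 KO were above every WT heart, and heart 3 fell inside the WT range. The difference was 0.47 (SE 0.16), a 1.39-fold higher signal.

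Probe A_51_P401792 was nearly as bright. Its WT hearts read 5.08, 4.59, 4.92 and 5.14, and its hearts labelled SIRT1 KO read 5.61, 5.15, 4.67 and 5.42. Heart 2 labelled SIRT1 KO was barely above the highest WT heart, and the difference was 0.28 (SE 0.20). Probe A_52_P524700, which carries the same accession, had WT values of 3.38, 2.72, 3.12 and 3.60 against 3.94, 3.55, 2.86 and 3.68. Here hearts 2 and 3 labelled SIRT1 KO lay inside the WT range, and the difference was 0.31 (SE 0.25), with the widest error of the 8 probes.

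Probe A_52_P454295 read 2.21, 1.78, 1.84 and 2.26 in WT hearts and 2.76, 2.43, 1.96 and 2.66 in the hearts labelled SIRT1 KO. It differed by 0.43 (SE 0.19), and again heart 3 alone was inside the WT range. Probe A_52_P569906 read -0.31, -0.70, -0.57 and -0.16 in WT against 0.17, -0.20, -0.64 and 0.03. Hearts 2 and 3 labelled SIRT1 KO overlapped the WT hearts there, and the difference was the smallest of the 8, 0.27 (SE 0.19).

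Of the 3 dimmest probes, one had the largest difference of all. Probe A_51_P521106 read -0.55, -0.77, -0.72 and -0.37 in WT hearts and 0.02, -0.23, -0.63 and 0.04 in the hearts labelled SIRT1 KO, a difference of 0.41 (SE 0.16). Probe A_52_P659477 read -0.94, -1.43, -1.39 and -0.96 against -0.32, -0.57, -1.13 and -0.61, and differed by 0.52 (SE 0.19), or 1.44-fold. On both of these, heart 3 alone among those labelled SIRT1 KO overlapped the WT hearts. Probe A_51_P191400 read -1.51, -1.76, -1.61 and -1.42 against -0.94, -0.97, -1.63 and -0.75, and differed by 0.50 (SE 0.18), with the same single overlapping heart.

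**Figure D1:**
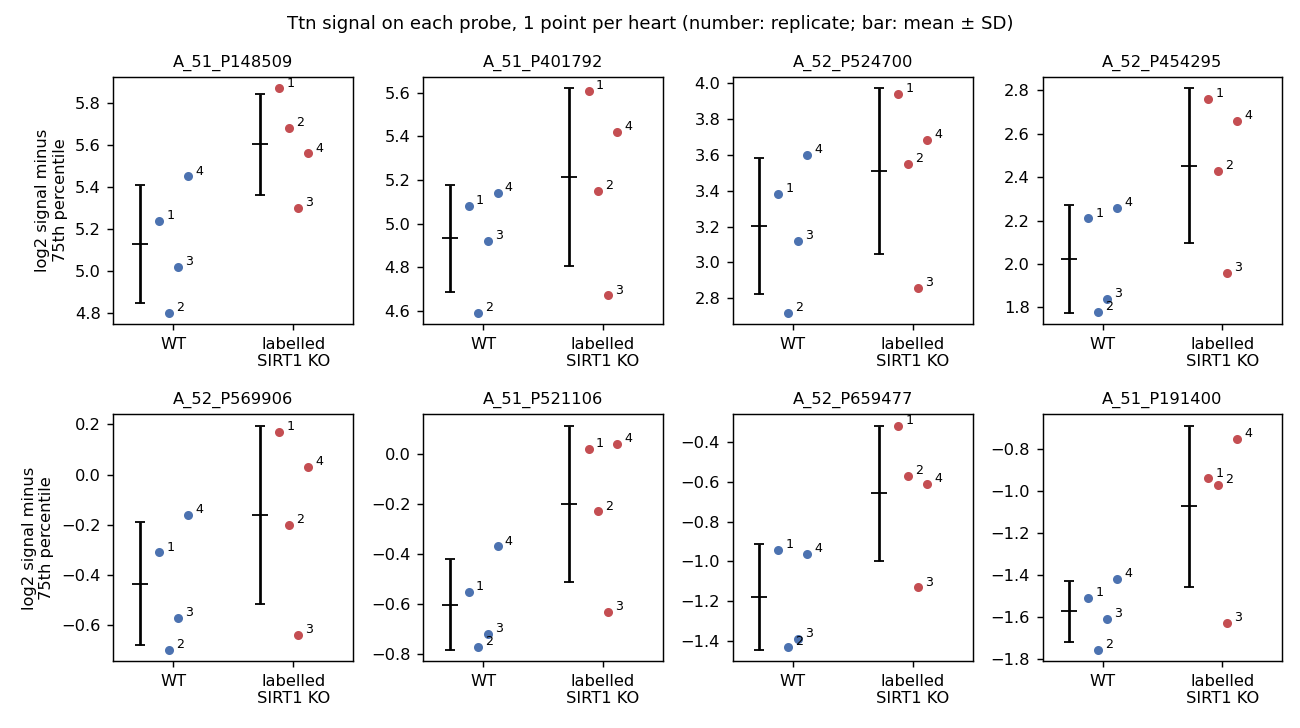
*Ttn* signal on each of its 8 probes, as log2 signal minus the array's 75th percentile on each vertical axis (each with its own range). Points are single hearts numbered by replicate (blue WT, red labelled SIRT1 KO) and bars are mean ± SD of 4 hearts; replicate 3 labelled SIRT1 KO is the lowest of its group on 8 of 8 probes.

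Across the 8 probes the median difference was 0.42, a 1.34-fold higher signal, and the SD of the 8 differences was 0.10. No probe had groups that did not overlap, while 13.7% of all 25616 probes tested had such groups and 8.63% had every heart labelled SIRT1 KO above every WT heart. At least 3 hearts labelled SIRT1 KO exceeded all WT hearts on 6 of the 8 probes. The share of all probes tested that do so was not worked out, so this count has nothing to be set against. The probes with accession NM_028004 had the differences of 0.28 and 0.31. The other 6 ranged from 0.27 to 0.52 with a median of 0.45, so the accessions overlapped. The probes were read on the same 8 hearts and are not replicates of the genotype.

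The hearts kept nearly the same order on every probe. WT replicate 2 was the lowest WT heart on 8 of 8 probes, and WT replicate 4 was the highest on 7. Replicate 3 was the lowest heart labelled SIRT1 KO on 8 of 8, and replicate 1 was the highest on 6. Over the 28 pairs of probes, the correlation across the 8 hearts ranged from 0.84 to 0.98, with a median of 0.92. After each genotype's mean was subtracted it ranged from 0.70 to 0.99, with a median of 0.94. These correlations are descriptions, since all probes were read from the same 8 RNA samples. Of the variation in *Ttn* signal among the 8 hearts, 92.3% was shared by the probes. This share includes the genotype difference on which the gene was selected. The scanner's own error model gave no more than 10.2% per spot.

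Averaged over the 8 probes and set against the WT mean, the WT hearts stood at 0.14, -0.28, -0.11 and 0.26. The hearts labelled SIRT1 KO stood at 0.70, 0.42, -0.09 and 0.57, or 1.63-, 1.34-, 0.939- and 1.48-fold of the WT mean. The SD of these means was 0.24 among WT hearts and 0.35 among hearts labelled SIRT1 KO, and 0.14 among the latter without replicate 3. Replicate 3 also had the lowest 75th percentile of the 8 arrays, 777.3 intensity units; the part of this in its *Ttn* level was not tested. Without it, the probe differences ranged from 0.43 to 0.69, with a median of 0.56, or 1.48-fold.

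**Figure D2:**
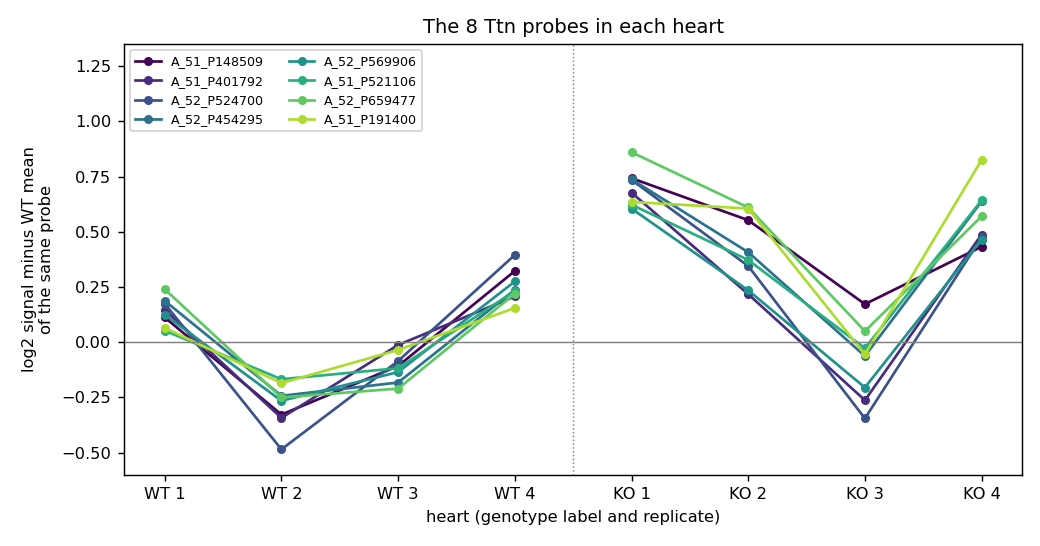
The 8 *Ttn* probes across the 8 hearts. The vertical axis is log2 signal minus the WT mean of the same probe, the horizontal axis lists the hearts by genotype label (KO, labelled SIRT1 KO) and replicate, and lines join the values of 1 probe within a genotype; the probes run close together in each heart, with means from -0.28 to 0.26 in WT and from -0.09 to 0.70 in the hearts labelled SIRT1 KO.

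**Figure D3:**
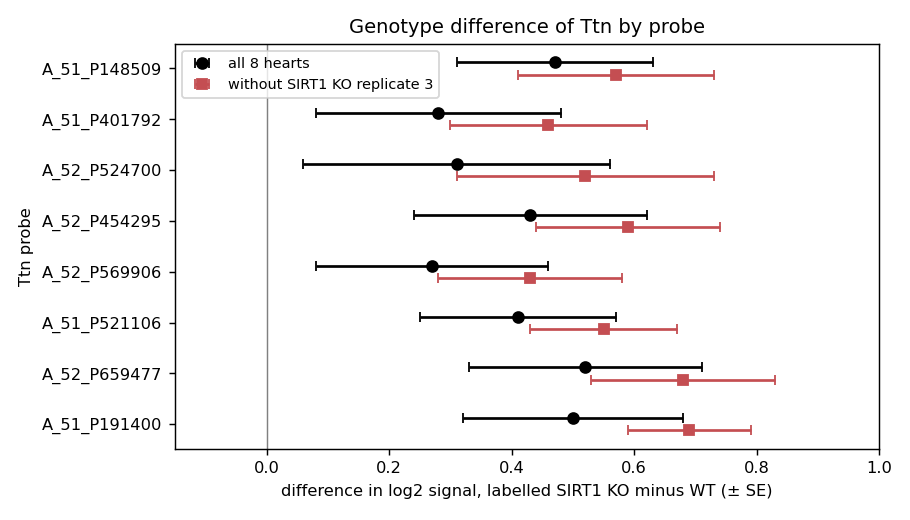
Difference in log2 signal between the hearts labelled SIRT1 KO and the WT hearts for each *Ttn* probe, ± SE. Black circles use all 8 hearts (0.27 to 0.52) and red squares leave out replicate 3 labelled SIRT1 KO (0.43 to 0.69).

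The size of the *Ttn* difference depended on how the arrays were brought to a common scale. Under every scaling tried, all 8 probes kept a higher mean in the hearts labelled SIRT1 KO. The median over probes was 0.43 with quantile normalization, 0.28 with median scaling and 0.20 with no scaling. These last scalings also moved the median of all probes tested, to -0.12 and -0.21, while it was 0.01 with the 75th percentile. Measured relative to the cardiomyocyte markers of the same heart, *Ttn* was 0.24 to 0.49 higher, with a median of 0.38.

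Cardiomyocyte genes were bright in these hearts, with WT means of 8.36 for *Myh7* and 7.73 for *Myh6*, the cardiac myosin heavy chains. A gene counts as measured when 4 or more arrays had a probe of it well above background. All 18 cardiomyocyte markers were measured. Against WT, 11 had a higher mean and 7 a lower one, with a median difference of 0.08 and no call. Their summed signal, as multiples of the 75th percentile, was 2857 to 3074 in WT hearts and 2836 to 3404 in the hearts labelled SIRT1 KO. The smallest p-values in this list belonged to *Myh7* and to *Tnnt2*, cardiac troponin T, which differed by 0.27 (adjusted p = 0.183). The highest difference in this list was that of *Myh7* (0.31).

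Of 49 genes for titin partners and titin splicing regulators, 47 were measured, 23 were higher and 24 lower, and the median difference was -0.03. Calls are limma adjusted p under 0.05 over all probes tested, and each gene was read on its brightest probe. Of these genes 2 passed, *Trim55* rising and *Neb* falling, or 4.26% of the 47, against 4.58% of all 13594 genes tested (3.69% rising and 0.897% falling) and 4.88% of all probes tested (3.97% rising and 0.91% falling). An unadjusted p under 0.05 was reached by 10 of the 47 (21.3%), against 20.4% of all genes tested. Without replicate 3 labelled SIRT1 KO, 3 of the 47 passed (6.38%), against 5.83% of all genes; the added gene was *Myoz2*.

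**Figure D4:**
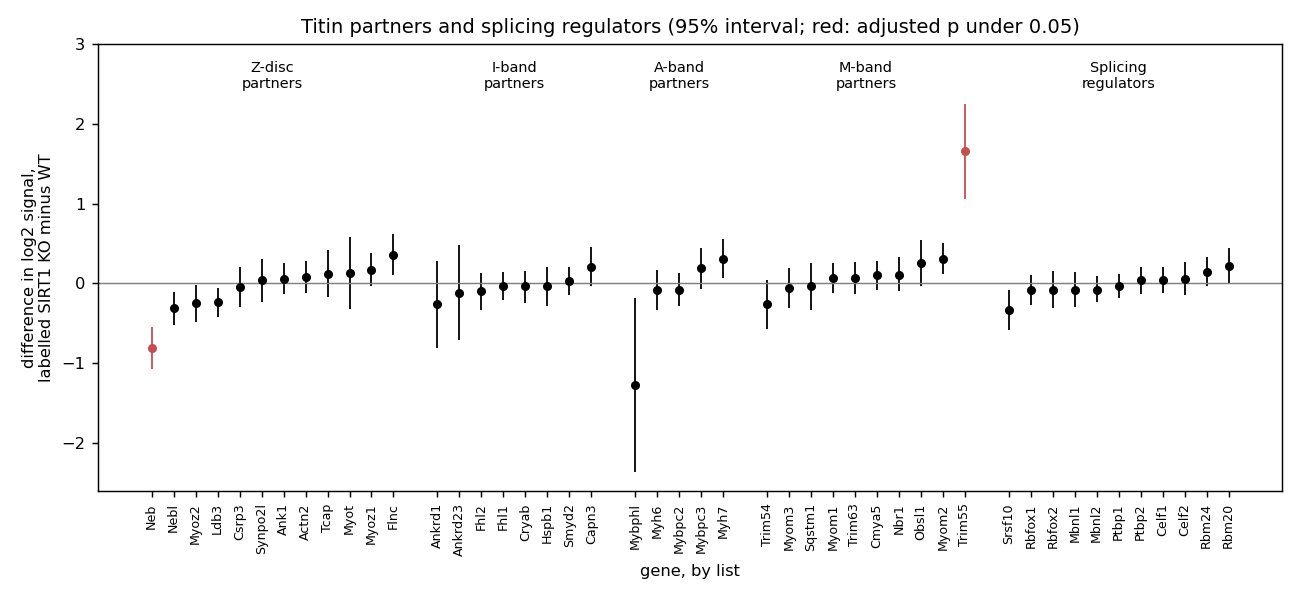
Difference in log2 signal between the hearts labelled SIRT1 KO and the WT hearts for titin partners and splicing regulators, by list. Points are fitted differences, bars are 95% confidence intervals from limma, and red marks an adjusted p under 0.05, reached by *Trim55* (1.66) and *Neb* (-0.81).

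Genes of the M-band, where the kinase end of titin sits, numbered 10, all measured, with 7 higher and 3 lower and a median of 0.09. *Trim55* encodes MuRF2, a ring-finger protein that binds near the titin kinase. It read 1.27, 1.65, 1.23 and 1.74 in WT hearts and 3.56, 3.66, 2.48 and 2.82 in the hearts labelled SIRT1 KO. Every heart labelled SIRT1 KO was above every WT heart. The difference was 1.66 (SE 0.26, adjusted p = 0.00895), a 3.15-fold higher signal. It stayed past the threshold when any 1 heart was left out (1.48 to 1.87), while the analysis of variance named in the study's methods gave an adjusted p of 0.0622.

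The other MuRF genes did not pass the test. *Trim63* (MuRF1), a ubiquitin ligase of muscle wasting, differed by 0.07 (adjusted p = 0.714), and this sign turned with median scaling, without scaling and with another background correction. *Trim54* (MuRF3) differed by -0.26 (adjusted p = 0.296). *Myom2*, which encodes M-protein and cross-links thick filaments at the M-band, was among the brightest partners. Its WT hearts read 7.50, 7.32, 7.31 and 7.50, and its hearts labelled SIRT1 KO read 7.78, 7.66, 7.62 and 7.80. The groups did not overlap, but the difference of 0.31 (SE 0.08) had an adjusted p of 0.0689. *Myom1*, the myomesin that links titin to myosin there, differed by 0.07 (adjusted p = 0.655), and was below 0 with median scaling and without scaling. *Obsl1*, a cytoskeletal adaptor that binds the M-band end of titin, differed by 0.26 (adjusted p = 0.282).

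The Z-disc list held 13 genes, all measured, with 7 higher and 6 lower and a median of 0.04. *Neb* encodes nebulin, the giant ruler of skeletal muscle thin filaments, and was dim here. Its WT hearts read -3.35, -3.62, -3.76 and -3.77, and its hearts labelled SIRT1 KO read -4.50, -4.32, -4.62 and -4.30. The groups did not overlap, and the difference was -0.81 (SE 0.12, adjusted p = 0.00622), 0.570-fold of WT. A second probe fell too, by 0.57 (adjusted p = 0.0133). With another background correction, normexp on the median signal, the *Neb* difference was -0.21 (adjusted p = 0.094).

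*Nebl*, the cardiac relative nebulette, read -0.24, 0.00, -0.12 and -0.29 in WT hearts against -0.40, -0.41, -0.63 and -0.46, without overlap, and differed by -0.31 (SE 0.09, adjusted p = 0.0893). *Tcap*, telethonin, which ties titin ends together at the Z-disc, differed by 0.12 (adjusted p = 0.622). *Actn2*, the actinin that cross-links actin and titin, differed by 0.08 (adjusted p = 0.64). Both of these signs turned with median scaling and without scaling. *Myoz2*, a calcineurin-binding Z-disc protein named because it passed without replicate 3, differed by -0.25 with all hearts (adjusted p = 0.194) and by -0.35 without that heart (adjusted p = 0.0299).

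Partners of the I-band spring were measured for 8 of 9 genes, 2 higher and 6 lower, with a median of -0.04 and no call. The stretch-responsive ankyrin repeat gene *Ankrd1* read 6.66, 6.50, 6.25 and 6.12 in WT hearts and 6.48, 6.28, 6.37 and 5.35 in the hearts labelled SIRT1 KO. Those groups overlapped (-0.26, adjusted p = 0.564), and replicate 4 labelled SIRT1 KO was the lowest heart; without it the difference was -0.01. *Capn3*, a protease that binds the I-band, differed by 0.21 (adjusted p = 0.312).

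The A-band list was measured for 5 of 6 genes, 2 higher and 3 lower, with a median of -0.08 and no call. *Myh7*, the slow and fetal myosin heavy chain, read 8.26, 8.32, 8.47 and 8.41 in WT hearts against 8.91, 8.47, 8.75 and 8.57. It differed by 0.31 (adjusted p = 0.136) on its brighter probe and by 0.36 (adjusted p = 0.0283) on the other. *Myh6*, its adult counterpart, differed by -0.08 (adjusted p = 0.699). These myosin genes are close relatives, and their probes may share signal. *Mybpc3*, the cardiac myosin-binding protein C, differed by 0.19 (adjusted p = 0.378), with a sign that turned under quantile normalization and without scaling. *Mybphl*, a relative of it, had the lowest difference of the partners, -1.27 (SE 0.48, adjusted p = 0.171), and its hearts labelled SIRT1 KO spread from -1.28 to 1.18.

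RNA splicing factors of muscle, of which RBM20 is the established regulator of the titin spring, were all measured, 11 genes with 5 higher and 6 lower, a median of -0.04 and no call. *Rbm20* read 2.34, 2.27, 2.39 and 2.59 in WT hearts and 2.76, 2.57, 2.44 and 2.69 in the hearts labelled SIRT1 KO. Its difference was 0.22 (SE 0.10, adjusted p = 0.246), its other probe gave -0.03 (adjusted p = 0.926), and the sign of the brighter probe turned without scaling. *Srsf10*, a splicing repressor, differed by -0.33 (adjusted p = 0.121).

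Long transcripts other than *Ttn* were examined as a check of RNA of great length. All 17 were measured, 13 were higher and 4 lower, and none passed the test. Of all probes tested, 51.7% were higher. The median difference was 0.08, against -0.01 over all genes on their brightest probe. *Lrp1*, a large lipoprotein receptor, had the highest difference on this reading, 0.26 (adjusted p = 0.155). *Akap9*, a scaffold for protein kinase A, had the lowest, -0.14 (adjusted p = 0.312). *Ryr2*, the cardiac calcium release channel, differed by 0.12 (adjusted p = 0.56). These differences are each gene's on its brightest probe. Other probes could part from it, as for *Huwe1*, a large ubiquitin ligase named for that reason, which differed by 0.08 on its brightest probe and by -1.28 to 0.52 on its other probes, none of them called.

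The protein-coding genes next to *Ttn* on chromosome 2 showed no call. *Fkbp7* and *Plekha3*, on the side of its 3′ end, differed by -0.23 (adjusted p = 0.245) and -0.07 (adjusted p = 0.6). *Ccdc141*, *Sestd1* and *Zfp385b*, on the other side, differed by -0.22 (adjusted p = 0.253), 0.12 (adjusted p = 0.525) and -0.19 (adjusted p = 0.567). A second probe of *Zfp385b* gave 1.66 (SE 0.54, adjusted p = 0.124), so its probes disagreed in sign. The signs of *Plekha3*, *Sestd1* and *Zfp385b* turned under at least 1 other scaling or background correction. *Pjvk* had no named probe.

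Liver genes moved with *Ttn* from heart to heart. Of 8 liver markers 6 were measured, and all 6 had a higher mean in the hearts labelled SIRT1 KO, with a median of 1.32 and no call. Their summed signal, as multiples of the 75th percentile, was 18.36, 15.12, 10.74 and 26.61 in the WT hearts. It was 114.3, 17.82, 12.54 and 59.7 in the hearts labelled SIRT1 KO. Replicates 1 and 4 labelled SIRT1 KO, the hearts highest in *Ttn*, were also the highest in liver RNA, and replicate 3 was the lowest of its group in both. *Alb*, serum albumin, differed by 1.32 (adjusted p = 0.324) and *Apoa2*, an apolipoprotein, by 1.33 (adjusted p = 0.275). Left out together, replicates 1 and 4 labelled SIRT1 KO took the median *Ttn* difference from 0.42 to 0.17. Being the hearts highest in *Ttn* itself, they had to lower the difference when left out, whatever their liver RNA. Only replicates 2 and 3 labelled SIRT1 KO remained, so this fit cannot tell what part liver RNA had. On 3 of the 8 probes little or no difference was left, with -0.02 on A_51_P401792, 0 on A_52_P524700 and 0.02 on A_52_P569906. In that fit *Trim55* differed by 1.60 (adjusted p = 0.0529) and *Neb* by -0.85 (adjusted p = 0.0395). The part of liver RNA in the *Ttn* difference was not tested.

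**Figure D5:**
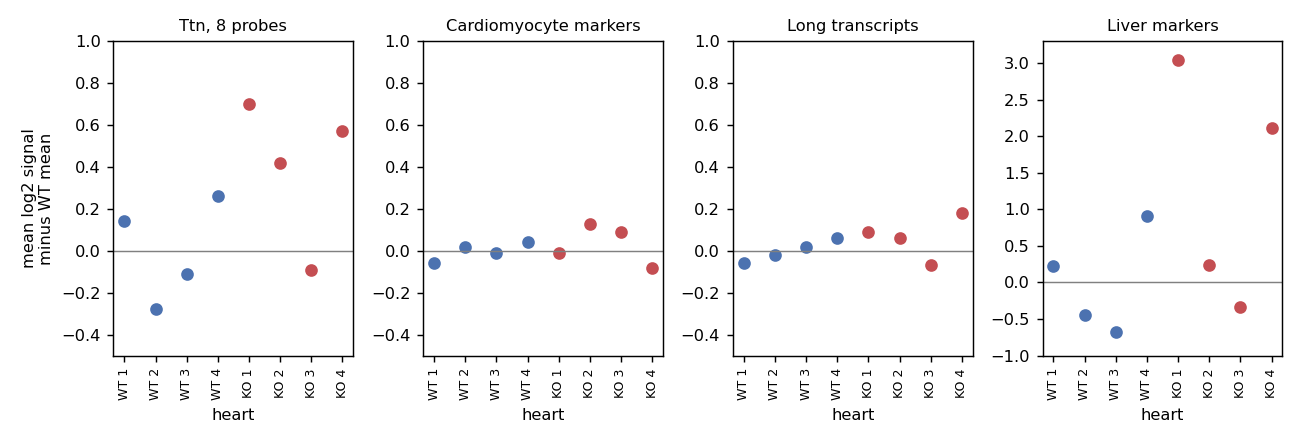
Mean log2 signal minus the WT mean in each heart, for the 8 *Ttn* probes, cardiomyocyte markers, long transcripts and liver markers (blue WT, red labelled SIRT1 KO). The liver panel has a wider vertical axis; *Ttn* and liver markers are both highest in replicates 1 and 4 labelled SIRT1 KO (0.70 and 0.57 for *Ttn*, 3.05 and 2.11 for liver), while cardiomyocyte markers stay between -0.08 and 0.13.

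Skeletal muscle also transcribes *Ttn*, and 11 of 20 skeletal muscle markers were measured, 8 of them higher, 2 lower and *Mybph* neither, with a median of 0.22. Of these 3 rose (against 3.69% of all genes tested), *Tnni2*, fast troponin I (0.62, adjusted p = 0.0225), *Cacna1s*, the skeletal calcium channel (0.49, adjusted p = 0.0256), and *Myog*, a muscle differentiation factor (0.52, adjusted p = 0.0291). Each of these calls was lost with median scaling, without scaling, with the analysis of variance, without the hearts highest in liver markers (*Tnni2* 0.65, adjusted p = 0.0736; *Cacna1s* 0.56, adjusted p = 0.0807; *Myog* 0.45, adjusted p = 0.101) and when certain single hearts were left out. Those of *Cacna1s* (0.42, adjusted p = 0.0581) and *Myog* (0.28, adjusted p = 0.197) were also lost with quantile normalization, and that of *Cacna1s* with the replicate number as a block (0.49, adjusted p = 0.053). Over all alternatives the differences stayed positive, at 0.40 to 0.69 for *Tnni2*, 0.27 to 0.56 for *Cacna1s* and 0.28 to 0.57 for *Myog*. *Tnnc2*, fast troponin C, differed by 0.89 (adjusted p = 0.165) and followed *Ttn* over the hearts with r = 0.93, and *Myh3*, embryonic myosin, differed by 0.47 without overlap (adjusted p = 0.0925), with r = 0.89. Both are named because they ran with *Ttn*. Of the defining genes, *Myog* was well above background on 7 arrays, while *Myod1*, *Myf5*, *Myf6*, *Pax7* and *Ryr1* were so on no more than 1. The summed signal of the list was 163.0 to 192.4 in WT hearts and 181.0 to 219.9 in the hearts labelled SIRT1 KO. Most of it came from *Myh4* and *Myh8*, whose probes may share signal with the cardiac myosins. The part of skeletal muscle RNA in the *Ttn* difference was not tested.

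Other cell types gave 1 call. Embryonic globin *Hbb-y* rose by 0.92 (adjusted p = 0.00783), 1 of 5 erythroid markers measured of 8, against 3.69% of all genes tested. Without the hearts highest in liver markers it differed by 0.91 (adjusted p = 0.0618). The summed erythroid signal was 219.6 to 261.0 in WT hearts and 174.1 to 215.5 in the hearts labelled SIRT1 KO. Of 8 endothelial markers 7 were lower (*Tek* -0.25, adjusted p = 0.229; *Kdr* -0.19, adjusted p = 0.273), and of 9 fibroblast and epicardial markers 6 were lower (*Pdgfra* 0.21, adjusted p = 0.127; *Upk3b* -0.43, adjusted p = 0.317). Of 8 macrophage markers 6 were higher (*Cd68* 0.64, adjusted p = 0.133; *Mrc1* -0.41, adjusted p = 0.143). Of 6 smooth muscle markers 5 were lower (*Myh11* -0.24, adjusted p = 0.207; *Cnn1* -0.18, adjusted p = 0.657). None of the 6 lung markers was measured.

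Genes were also ranked by how closely their signal followed *Ttn* over the 8 hearts, using the mean of the standardized probes. Of 13535 genes ranked, 132 had a Pearson r above 0.9. The closest were *Igf2bp2* (0.984), *6030458C11Rik* (0.981), *Cpsf7* (0.978), *Zc3h4* (0.976) and *Ptges* (0.974). *Jkamp* (-0.983), *Becn1* (-0.979) and *Ccpg1os* (-0.977) ran most nearly opposite. *Igf2bp2*, an RNA-binding protein, read 0.66, 0.51, 0.61 and 0.79 in WT hearts and 1.03, 0.86, 0.64 and 0.90 in the hearts labelled SIRT1 KO, the same low and high hearts as for *Ttn*. With each genotype's mean subtracted, *6030458C11Rik* (0.984) and *Igf2bp2* (0.976) led again, and *Ampd2* (0.973) and *Klf5* (0.971) were also among the 5 closest. *Klf5* followed *Ttn* within the genotypes only. Its mean was lower in the hearts labelled SIRT1 KO (-0.32, limma adjusted p = 0.142), and its r over the 8 hearts was 0.05.

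Among the sarcomere and splicing genes, *Obsl1* followed *Ttn* most closely, at rank 23 (r = 0.95). It read 4.49, 4.16, 4.37 and 4.61 in WT hearts and 4.71, 4.72, 4.39 and 4.84 in the hearts labelled SIRT1 KO. *Rbm20* was at rank 58 (r = 0.93). *Trim55*, in spite of its large difference, was at rank 933 (r = 0.73). The liver genes *Alb*, *Apoa1*, *Apoa2* and *Fgb* lay at ranks 84 to 95, each with r = 0.91. All r values here rest on the same 8 arrays and carry no test. None of the closest 5 genes was among the 5 closest to the brightest *Ttn* probe taken alone.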

How the data were processed

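Intensities of 8 one-colour Agilent arrays were used as deposited; per the file headers they are Feature Extraction (12.0.0.7) processed signals, already background-subtracted by the authors. No count or depth exists for arrays, and 4 hearts per genotype limit the precision. Groups came from the sample labels. Nothing in the labels says that hearts are from separate litters. Each spot was taken as log2 minus the log2 75th percentile of its array, outlier spots were left out and spots of a probe averaged. Of 41174 probes, the 25616 that stood well above background on 4 or more arrays were fitted with limma 3.58.1 in R 4.3.3, genotype as the only term, with Benjamini-Hochberg adjustment over all of them; the fit was tested on simulated data. Accessions named 28223 probes (68.5%) through RefSeq (GRCm38.p6). The members, gene lists and tests were chosen with earlier results of these data known. Genes named are *Ttn*, list members that passed, the 2 smallest p-values of each list, and a set of fixed titin partners and neighbours; others are named with the reason. Differences are hearts labelled SIRT1 KO minus WT. Alternatives were other scalings, background correction, filters, thresholds, a replicate block, the methods' analysis of variance, and leaving out hearts. Probe sequences were not used here, and the values of a few single genes are not reported here.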

Additional observations from a re-analysis of the deposited data

Results flagged for a closer look

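Hearts were examined by Dixon's test, the gap of the highest or lowest heart to its nearest neighbour as a share of the group's range. No *Ttn* probe passed its 95% critical value, although replicate 3 was the lowest heart labelled SIRT1 KO on 8 of 8 probes. Among 98 groups of 4 hearts examined, for the 8 *Ttn* probes and 41 of the other genes named, 5 passed, and chance flags about 1 group in 20. Other genes named in the text, such as *Myoz2* and *Trim54*, were not examined. *Tcap* was low in WT replicate 4 at 5.33, where the other WT hearts read 5.53 to 5.57. *Capn3* was high in the same heart at -2.95, against -3.21 to -3.18. *Myh6* was low in WT replicate 2 at 7.46, against 7.80 to 7.86, and *Srsf10* was high there at 1.31, against 0.99 to 1.01. *Plekha3* was low in WT replicate 3 at 0.54, against 0.72 to 0.74.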

How the results depend on the processing

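Of 120 values of the *Ttn* differences under alternatives, 117 were 0.06 or higher and within the SD between hearts of the reported value. The other 3 were probes A_51_P401792 at -0.02, A_52_P524700 at 0 and A_52_P569906 at 0.02, all without replicates 1 and 4 labelled SIRT1 KO, an alternative chosen after seeing the data. Leaving out single hearts gave *Ttn* differences from 0.14 to 0.69 per probe. The number of titin partners and splicing regulators called, 2 in the report, was 5 with median scaling (1 higher, 4 lower), 9 without scaling (1 higher, 8 lower), 4 with normexp on the median signal (2 higher, 2 lower; chosen after seeing the data, in place of the planned normexp on the mean signal, which was not run), 1 with the methods' analysis of variance, 1 without the hearts highest in liver markers, 4 at an adjusted p under 0.1 and 2 to 3 without single hearts. The number of all probes called, 1250 in the report (1017 higher, 233 lower), was 1051 with quantile normalization (672 higher, 379 lower), 1904 with median scaling (676 higher, 1228 lower), 6347 without scaling (637 higher, 5710 lower), 2631 with normexp, 546 with the analysis of variance, 645 without the hearts highest in liver markers, 2275 at an adjusted p under 0.1, and 657 to 1825 without single hearts.

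Of the 5 genes most like *Ttn*, 2 were shared with Spearman ranks, 2 with quantile normalization and 0 with the brightest probe alone. Of 737 values of 41 of the other genes named, 650 kept direction and side of the threshold, 47 lost the call, 20 gained it and 20 turned sign. With median scaling *Tcap* was -0.01, *Actn2* -0.05, *Myom1* -0.06, *Trim63* -0.07 and *Sestd1* -0.01. Without scaling *Tcap* was -0.10, *Actn2* -0.14, *Capn3* -0.01, *Myom1* -0.15, *Mybpc3* -0.03, *Trim63* -0.15, *Rbm20* -0.0017, *Pdgfra* -0.01 and *Sestd1* -0.10. *Mybpc3* was -0.02 with quantile normalization. With normexp *Trim63* was -0.06, *Plekha3* 0.01 and *Zfp385b* 0.06. Without single hearts *Cnn1* ranged from -0.32 to 0.01, the latter without replicate 4 labelled SIRT1 KO, and it was 0.09 without the hearts highest in liver markers. The cause of these changes was not tested.

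Same-numbered hearts of the genotypes deviated together with r = 0.20, 0.21, 0.06 and 0.14, and every heart correlated best with its own number. The series description speaks of pairs of hearts without saying what pairs them or that the numbers mark the pairs, so whether the hearts were paired is not settled. With the replicate block, 1185 probes and 3 titin partners and splicing regulators were called, the added gene being *Mybphl*.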
